A study of Caenorhabditis elegans with 2 samples.

Results

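The DM-domain genes of *Caenorhabditis elegans* were examined as candidate genomic targets of 1 of their own family, DMD-9. The 10 genes listed were mab-3, mab-23, dmd-3, dmd-4, dmd-5, dmd-7, dmd-8, dmd-9, dmd-10 and dmd-11, and they were listed by name as members of the family, with earlier results of these data known. Of these, 9 were placed on the Ensembl annotation, out of 19973 protein-coding genes on the nuclear chromosomes; dmd-11 was not analysed here, nor was dmd-6, which was not among the genes listed. Each gene was taken with 5000 bp to each side, and a peak was assigned to it when its summit lay in that window.

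The peaks come from chromatin immunoprecipitation with sequencing (ChIP-seq) of whole L4 larvae aged 48 hours, grown from a population synchronised by bleaching and L1 starvation. All larvae were of strain RJP5357, in which allele rp169, made by CRISPR, inserts GFP, AID (a degron), a TEV protease site and 3xFLAG into dmd-9 on chromosome IV; an anti-GFP antibody was used. There was 1 group of 2 biological replicates, with no untagged strain, other stage or treatment among them, and the labels do not record the sex of the larvae. Only this 1 edited strain stands for DMD-9, and whole larvae mix all cell types, so strong occupancy in few cells and weak occupancy in many cannot be told apart.

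DM proteins bind DNA through a zinc-binding domain named after Drosophila doublesex and worm mab-3, and they act in sexual development across animals. In *C. elegans*, the sex determination pathway ends in TRA-1, which represses mab-3 and dmd-3 in hermaphrodites. MAB-3 turns off vitellogenin genes in the male intestine and acts with the proneural gene lin-32 in male sense organs. Several family members shape neurons that differ between the sexes.

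The authors deposited ranked lists, which hold mostly weak peaks, and thresholded lists, which hold peaks past the authors' threshold. Signal is the peak caller's own value and is not scaled between lists, so values are compared only within a list. The global irreproducible discovery rate (IDR) is low for peaks that rank both high and alike in both members of the pair compared. A high value can therefore mean a weak peak as well as a difference in rank. All 1379 joint peaks had a global IDR at or under 0.01, which is taken here as the authors' threshold. A further 65 pooled ranked peaks were past it and not in the joint list, so it does not define that list alone. In the lists of the 2 replicates against each other, the pair compared is the 2 replicates. A low IDR in the pooled lists or in a replicate's own lists need not mean recurrence between the replicates. The pooled ranked list held 112594 peaks, the ranked list of the 2 replicates against each other 112442, that of replicate 1 58574 and that of replicate 2 61188. The joint thresholded list, from the pooled data, held 1379 peaks, the conservative list, from the 2 replicates against each other, 1346, and the own lists of replicates 1 and 2 held 569 and 545. The sequencing depth is unknown, and with 1 group no test between groups was possible, so the family is described beside all protein-coding genes.

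A few peak sequences carry the observations that follow: the strongest peak near dmd-9 itself, the peaks of the only members with a thresholded peak, and a tandem repeat upstream of dmd-8. Each is 284 bases of the RefSeq WBcel235 genome, the build whose coordinates match the ce11 peak lists, and is written 5′ to 3′ on the strand of its gene. Capitals mark 10 bases to each side of the summit in the dmd-9 and dmd-4 sequences, a tRNA gene in that of dmd-5, and every copy of the letters TAGGC in that of dmd-8.
dmd-9, chrIV:3256041-3256324, minus strand: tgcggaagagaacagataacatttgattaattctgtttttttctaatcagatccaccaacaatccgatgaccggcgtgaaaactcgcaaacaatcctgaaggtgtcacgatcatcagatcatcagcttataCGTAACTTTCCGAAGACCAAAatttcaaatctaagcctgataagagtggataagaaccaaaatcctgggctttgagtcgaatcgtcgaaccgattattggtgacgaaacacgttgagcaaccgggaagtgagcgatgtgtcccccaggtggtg
dmd-5, chrII:5772853-5773136, minus strand: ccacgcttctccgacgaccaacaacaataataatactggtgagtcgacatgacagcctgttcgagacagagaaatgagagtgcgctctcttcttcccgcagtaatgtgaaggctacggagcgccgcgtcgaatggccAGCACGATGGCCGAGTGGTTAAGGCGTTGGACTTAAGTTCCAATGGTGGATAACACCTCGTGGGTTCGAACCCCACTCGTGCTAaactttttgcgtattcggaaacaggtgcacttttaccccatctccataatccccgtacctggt
dmd-4, chrX:14853889-14854172, minus strand: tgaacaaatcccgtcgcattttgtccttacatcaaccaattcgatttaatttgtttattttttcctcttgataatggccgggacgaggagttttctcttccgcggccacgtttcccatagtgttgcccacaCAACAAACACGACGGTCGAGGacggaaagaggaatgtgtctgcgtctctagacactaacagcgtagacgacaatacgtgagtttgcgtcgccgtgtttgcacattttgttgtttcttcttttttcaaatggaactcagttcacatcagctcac
dmd-8, chrV:337160-337443, minus strand: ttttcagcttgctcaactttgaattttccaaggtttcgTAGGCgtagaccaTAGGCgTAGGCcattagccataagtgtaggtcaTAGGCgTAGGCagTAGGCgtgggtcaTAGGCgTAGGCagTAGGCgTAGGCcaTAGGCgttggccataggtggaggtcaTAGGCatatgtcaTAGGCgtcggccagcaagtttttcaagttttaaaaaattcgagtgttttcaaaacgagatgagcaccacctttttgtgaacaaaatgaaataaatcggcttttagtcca

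Thresholded DMD-9 peaks lay near 2 of the 9 placed family members, dmd-5 and dmd-4, and not near dmd-9 itself. Across all protein-coding genes, 16.0% had a joint peak within 5000 bp. The conservative list named the same 2 members, where 15.7% of all genes had a peak. Each replicate's own list had a peak at dmd-5 alone, against 7.97% of all genes in replicate 1 and 7.63% in replicate 2. No member had a joint summit in its 5' end window, the 1000 bp before an annotated 5' end and the 200 bp after it, where 4.22% of all genes had one. A looser cutoff, a global IDR of 0.05 in the pooled ranked list, was met near 5 members, beside 33.8% of all genes. These were dmd-4, dmd-5, dmd-8, dmd-9 and dmd-10. The ranked list of the 2 replicates against each other also gave 5 members, beside 33.1% of all genes, but not the same ones. There dmd-7 met the cutoff, at 0.0270, and dmd-8 did not, with 0.544 at its strongest peak. Yet no peak in the own list of replicate 2 overlapped that dmd-7 peak. The dmd-8 peak had an overlapping peak in both replicates, at 10.2 and 42.1. With 9 genes, 1 gene more or less changes such a share by more than the gap to the background in the thresholded lists, so those counts are not set apart from it. The looser count is further from its background, and no test was made of it.

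**Figure D1:**
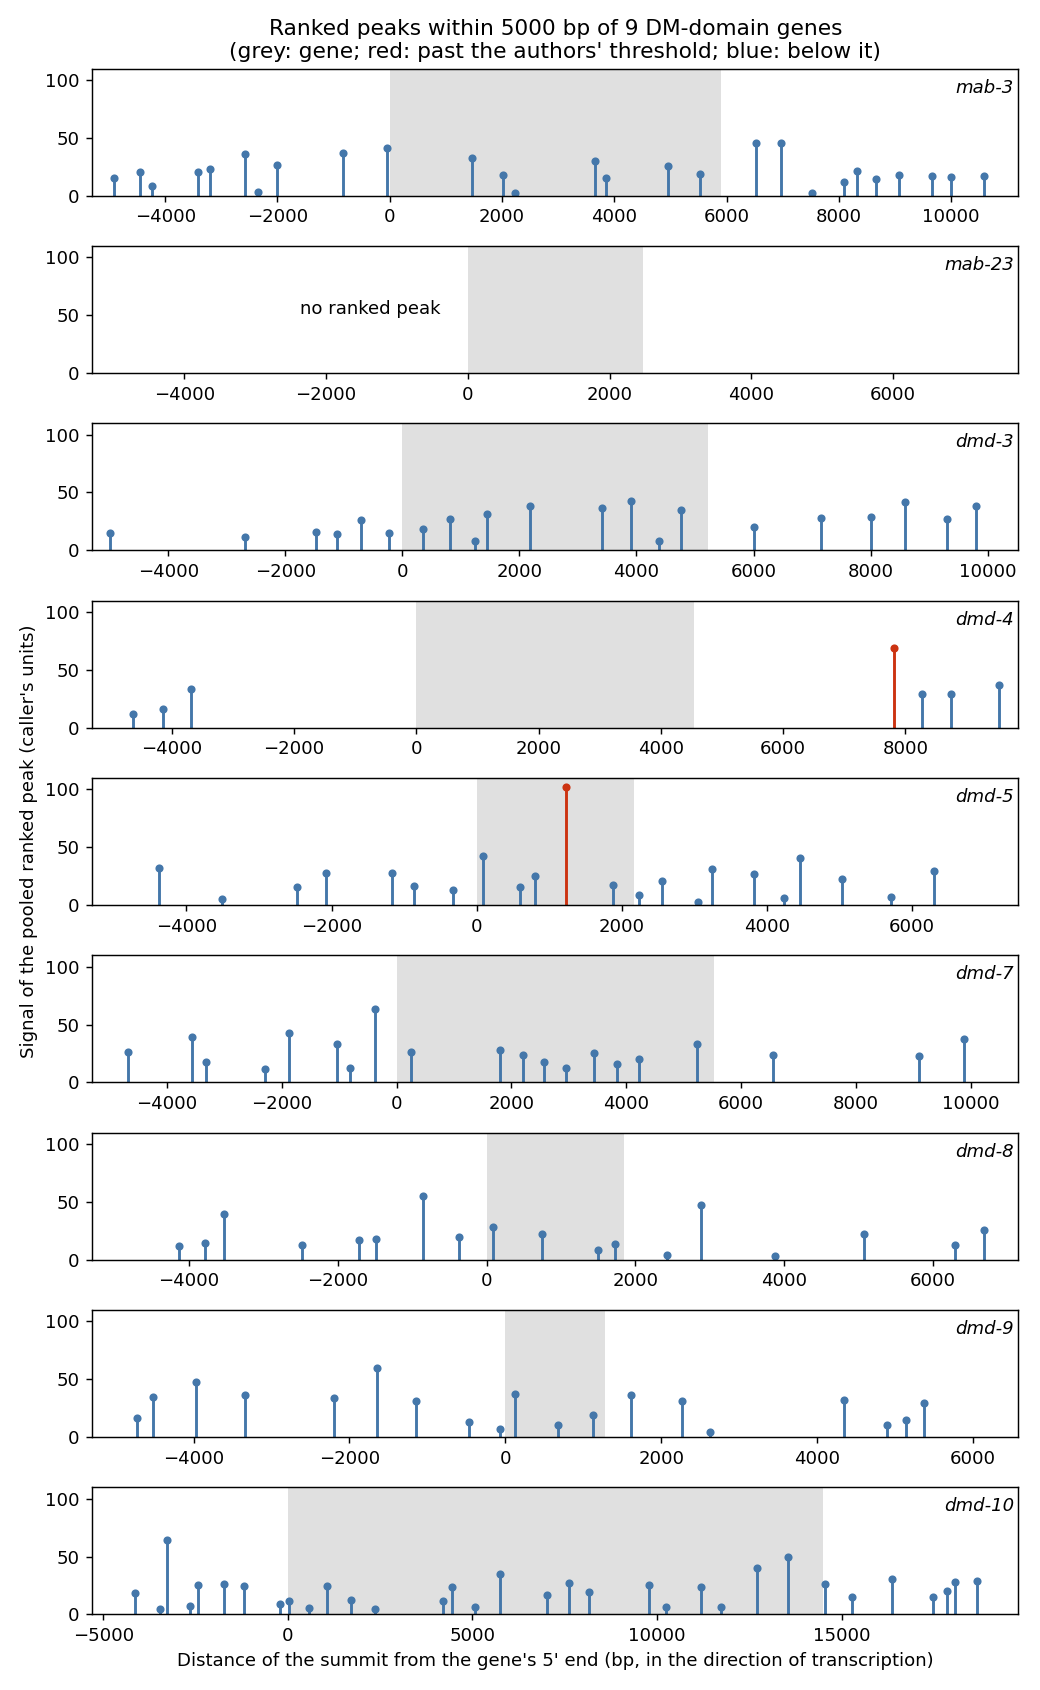
Summits of the pooled ranked list around each placed DM-domain gene. The horizontal axis is the distance from the gene's 5' end in bp along the direction of transcription, the height is the caller's signal, grey marks the gene, and red marks a peak past the authors' threshold. The only red peaks are inside dmd-5, at a signal of 102, and past the 3' end of dmd-4, at 69.1; mab-23 has no summit.

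The tagged gene itself, dmd-9 (WBGene00022060, ce11 chrIV:3253261-3254543, minus strand, 1283 bp), had a moderate peak upstream. Its window held 19 peaks in the pooled ranked list, 18 in the list of the 2 replicates against each other, 13 in replicate 1 and 8 in replicate 2. The strongest pooled peak, printed above, had a signal of 60.0 and lay 1640 bp upstream of the 5' end, at rank 2451, with a global IDR of 0.0481 and a q value of 0.610. The same region had a signal of 31.5 in replicate 1, with a global IDR of 0.426, and 24.6 in replicate 2, with 0.804. The replicates therefore both listed a peak there, and neither placed it near the threshold. In the list of the 2 replicates against each other its global IDR was 0.0464. A weaker peak of that list, at 35.9 and 335 bp past the 3' end, had a lower global IDR, 0.0350, but 0.160 in the pooled list. In replicate 2 the strongest peak of the window was another one, at 27.8, which lay 442 bp past the 3' end.

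Further pooled peaks around dmd-9 were weaker. One of signal 47.9 lay 3970 bp upstream, which is 397 bp upstream of the neighbouring gene T26C12.1. A peak of 37.2 lay in a coding exon, 130 bp past the 5' end, with a global IDR of 0.314. Inside the gene there were 3 ranked peaks. The nearest joint peak was 40.2 kb away, at a signal of 132 and 376 bp upstream of W08E12.7, while the median protein-coding gene was 30.0 kb from a joint peak. The strongest signal at dmd-9 was above that of 74.4% of protein-coding genes in the pooled list, 73.3% in replicate 1 and 44.3% in replicate 2. Among genes whose windows were within 10% of the same length the figure was 78.6%, and with 1000 bp to each side it was 45.4%.

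The strongest pooled peak near the placed members was at dmd-5 (WBGene00017326, chrII:5772054-5774220, minus strand, 2167 bp), a gene that acts in male neurons and mating. Its signal was 102 in the pooled list, at rank 523, with a global IDR of 0.00103 and a q value of 0.0239. Replicate 1 gave 54.4 at a global IDR of 0.00339 and replicate 2 gave 51.5 at 0.00803, both past the authors' threshold. No other family member had a peak past it in either replicate's own list.

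That summit lay in an intron of dmd-5, 1225 bp past the 5' end, on a tRNA gene. The tRNA gene, in capitals in the dmd-5 sequence above, is a leucine tRNA gene (tRNA-Leu, WBGene00022984, chrII:5772916-5772999, minus strand, 84 bp), and the summit was 4 bp from its 5' end. tRNA genes are transcribed by RNA polymerase III from promoters inside the gene. Across the genome, 232 of 612 tRNA genes (37.9%) had a joint summit within 100 bp, and so did 104 of the 290 (35.9%) that lie inside a protein-coding gene. Among tRNA-Leu genes the count was 15 of 39, this gene included. Exactly this sequence occurs at 2 tRNA genes, this one and 1 other, and both had a joint peak. No other placed member had a tRNA gene in its window. The next strongest peak at dmd-5 had a signal of 42.5, at 82 bp past the 5' end in a coding exon, with a global IDR of 0.235. In all, the window had 22 pooled peaks, 20 in the list of the 2 replicates against each other, 11 in replicate 1 and 13 in replicate 2.

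The thresholded peak near dmd-4 (WBGene00007776, chrX:14857303-14861852, minus strand, 4550 bp) lay 3272 bp past its 3' end. DMD-4 is known for a sex-specific role in phasmid neurons. The signal was 69.1, with rank 1369, a global IDR of 0.00551 and a q value of 0.319. In replicate 1 the region had 32.0 and in replicate 2 it had 42.3, with global IDRs of 0.106 and 0.162, so it passed the threshold in the joint and conservative lists and in neither replicate's own list. The summit, in capitals in the dmd-4 sequence above, was 55 bp upstream of the 5' end of C27C12.4 on the plus strand and 269 bp upstream of that of C27C12.1 on the minus strand. It thus sits between the starts of a divergent gene pair and much nearer to them than to dmd-4.

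Few other peaks surrounded dmd-4. The pooled list had 7 summits in the window, the list of the 2 replicates against each other 6, replicate 1 3 and replicate 2 6. None of the pooled summits lay inside the gene. The stretch between neighbouring summits that held its 5' end was 11.5 kb long, and 14.7% of genes had one at least as long.

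At dmd-10 (WBGene00007929, chrV:13222116-13236607, minus strand, 14492 bp), the longest of the placed members, the strongest pooled peak had a signal of 63.9. It lay 3275 bp upstream, with a global IDR of 0.0198. It had 25.8 in replicate 1 and 37.4 in replicate 2. A blastn search found 19 other places in the genome that match the peak's 284 bp at 90% identity or more over at least 50% of its length, and none for the strongest peaks of the other 7 members with a peak. The next peak, at 49.7, lay in a coding exon 13543 bp past the 5' end. In replicate 1 the strongest peak of the window was 1 in an intron, at 30.0. The window held 33 pooled peaks, 32 in the list of the 2 replicates against each other, 13 in replicate 1 and 17 in replicate 2.

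For dmd-7 (WBGene00019521, chrV:6246931-6252458, plus strand, 5528 bp), the strongest pooled peak was also the strongest in any member's 5' end window. It had a signal of 63.6 at 378 bp upstream, with a global IDR of 0.0970 in the pooled list and 0.0270 in the list of the 2 replicates against each other. Replicate 1 had an overlapping peak of 28.7, and no peak of replicate 2 overlapped it. The value of 0.0270 thus did not go with a peak listed there in each replicate. The strongest peak of replicate 2 was at 31.2, 1895 bp upstream. The window held 20 peaks in the pooled list, 20 in that of the 2 replicates against each other and 11 in each replicate.

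At dmd-8 (WBGene00020708, chrV:334601-336450, minus strand, 1850 bp), the replicates differed in the strength of the main peak. The strongest pooled peak had a signal of 55.3, 852 bp upstream, with a global IDR of 0.0144 in the pooled list and 0.544 in the list of the 2 replicates against each other. Replicate 1 had 10.2 there, at rank 47429 of its list, and replicate 2 had 42.1, at rank 1150. The peak covers the tandem repeat printed above, with 13 copies of TAGGC; the median joint peak had 0, and 4 of the 1379 had at least 5. These letters were picked after the sequence was seen, and their part in the result was not tested. In the window were 18 pooled peaks, 16 in the list of the 2 replicates against each other, 8 in replicate 1 and 12 in replicate 2.

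The male development genes mab-3 and dmd-3 had the lowest strongest signals in the pooled list among the members with a peak; in replicate 1 dmd-8 was lower than both, at 22.5, and in replicate 2 dmd-9, at 27.8, was below mab-3, at 29.0. Around mab-3 (WBGene00003100, chrII:9732137-9738035, plus strand, 5899 bp) the strongest pooled peak had a signal of 45.8, with 23.5 in replicate 1 and 24.5 in replicate 2, and lay 1075 bp past the 3' end. Its global IDR was 0.0884. A peak of 41.0 lay 44 bp upstream of the 5' end, with a global IDR of 0.175. Both joint ranked lists had 27 peaks in the window, yet there were 5 in replicate 1 and 15 in replicate 2, 4 of which overlapped between the replicates.

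DMD-3 drives male tail tip morphogenesis together with MAB-3. At dmd-3 (WBGene00012832, chrV:19650025-19655251, minus strand, 5227 bp) the strongest pooled peak had 42.8, with 15.4 in replicate 1 and 23.4 in replicate 2, in an intron 3907 bp past the 5' end, and a global IDR of 0.166. Its window held 21 pooled peaks, 20 in the list of the 2 replicates against each other, 11 in replicate 1 and 12 in replicate 2. A joint peak of signal 165 lay just outside the window, 6.82 kb from dmd-3, within 100 bp of a snoRNA gene (WBGene00045120) and nearest to the 5' end of Y43F8C.7.

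For mab-23 (WBGene00003114, chrV:10633058-10635525, plus strand, 2468 bp), which acts in male muscle and neuron differentiation, none of the 4 ranked lists used here held a summit in the window. Of all protein-coding genes, 4.73% had no pooled ranked peak within 5000 bp. The stretch between neighbouring summits that held its 5' end was 42.4 kb in the pooled list, 31.1 kb in replicate 1 and 45.9 kb in replicate 2, while the median gene had 1.05 kb in the pooled list. Stretches at least as long held the 5' ends of 1.18% of genes in the pooled list. Whether the lists are complete over this stretch was not tested. No signal is given for mab-23, and it enters none of the medians below.

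**Figure D2:**
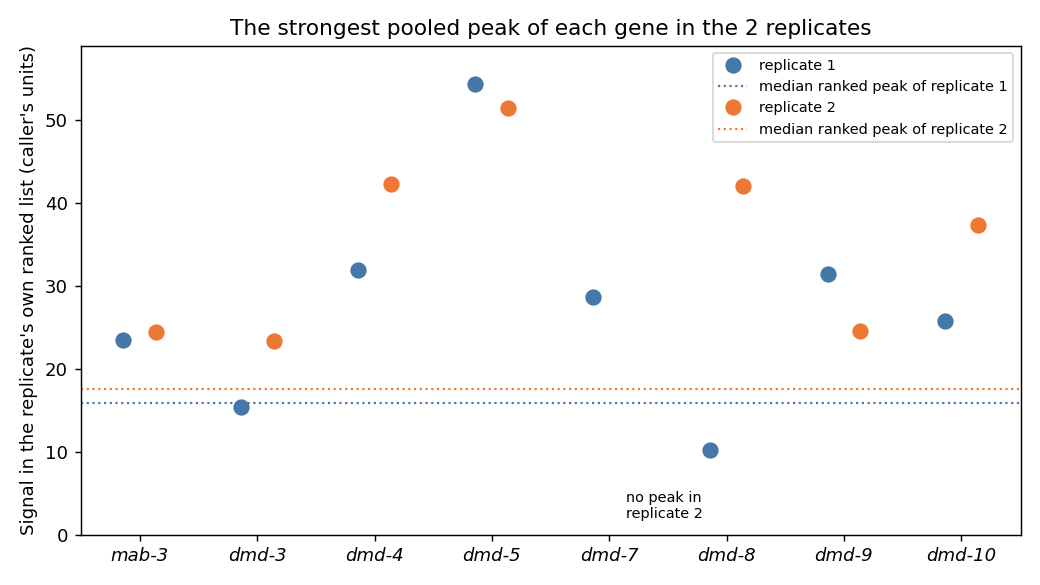
Signal of each gene's strongest pooled peak in the own ranked lists of replicate 1 (blue) and replicate 2 (orange), in the caller's units, with dotted lines at the median of all ranked peaks, 15.9 in replicate 1 and 17.6 in replicate 2. Both values of dmd-5 exceed 50, dmd-8 has 10.2 and 42.1, and dmd-7 has no overlapping peak in replicate 2.

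Ordered by strongest pooled signal, the family ran dmd-5, dmd-4, dmd-10, dmd-7, dmd-9, dmd-8, mab-3 and dmd-3. Much of that order did not hold between the replicates. Of the 28 pairs among these 8 genes, 19 had the same order of strongest signal in both replicates. Set against dmd-9, 4 genes were higher and 3 lower in the pooled list, but 2 were higher and 5 lower in replicate 1, and 6 were higher and 1 lower in replicate 2. Only dmd-4 and dmd-5 exceeded dmd-9 in both replicates, and only dmd-3 was below it in both. The position of mab-3, dmd-7, dmd-8 and dmd-10 relative to dmd-9 changed with the replicate.

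The strongest peak of the window was the same region in both replicates at 2 of the 9 members, dmd-4 and dmd-5, beside 24.6% of all genes. Of the ranked peaks in the members' windows, 40 of 75 in replicate 1 (53.3%) had an overlapping peak in the other replicate, as did 43 of 94 in replicate 2 (45.7%). Over the windows of all protein-coding genes the shares were 52.6% and 51.2%. At dmd-7 the share was 27.3% in each replicate, with 3 of 11 peaks shared.

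Among all protein-coding genes the members stood somewhat above the middle. The median strongest pooled signal of the 8 members with a peak was 61.8, and that of all genes with a peak was 49.7, with quartiles of 41.7 and 61.1. The median member exceeded 76.7% of protein-coding genes in the pooled list, 65.9% in replicate 1 and 69.7% in replicate 2. These medians leave out mab-23, which had no peak, while other genes without a peak count as lowest, so they are somewhat raised. By member, the pooled figure was 92.6% for dmd-5, 83.8% for dmd-4, 79.4% for dmd-10 and 79.0% for dmd-7. It was 65.6% for dmd-8, 40.7% for mab-3 and 31.9% for dmd-3. The members thus spread over most of the range of all genes, and dmd-9 lay inside their spread.

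**Figure D3:**
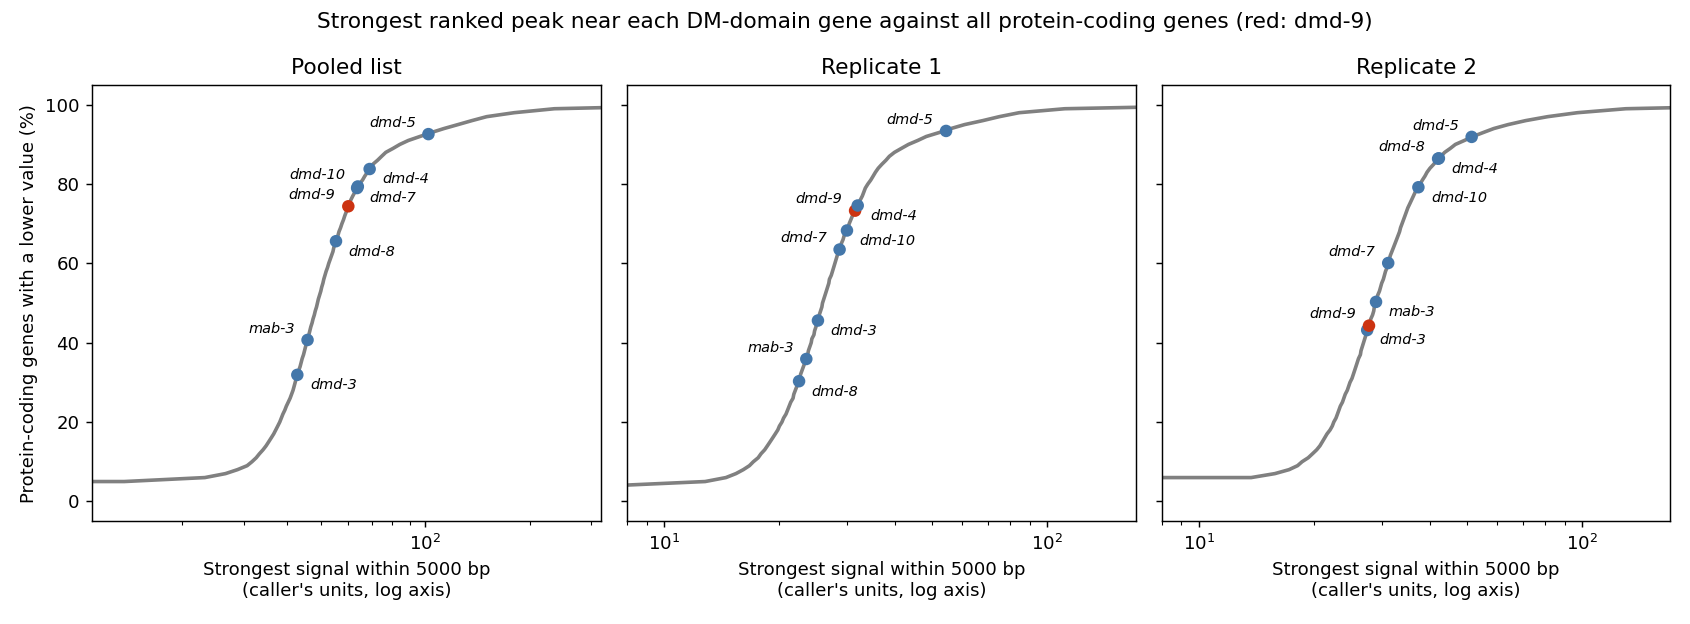
Strongest signal within 5000 bp of each gene (log axis, caller's units) against the share of protein-coding genes with a lower value, in the pooled list and each replicate. The grey curve is all 19973 protein-coding genes, with genes without a peak counted lowest, blue points are DM-domain genes and the red point is dmd-9, which lies at 74.4% in the pooled list and 44.3% in replicate 2.

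The density of ranked peaks around the family was slightly above that around all genes in the pooled list. The windows of the 9 members held 12.5 pooled peaks per 10 kb and those of all protein-coding genes 11.3, a ratio of 1.11. Without mab-23 the members' density was 13.8. In replicate 1 the members' density was 5.62 and that of all genes 5.90, the opposite order, and in replicate 2 it was 7.04 against 6.11. The highest densities were 18.1 at dmd-5, 17.0 at mab-3 and 16.8 at dmd-9, and the lowest above 0 was 4.81 at dmd-4. For dmd-9 the density was 11.5 in replicate 1 and 7.09 in replicate 2, and for mab-3 it was 3.14 and 9.43. By position, the members had 13.1 peaks per 10 kb in the 5000 bp upstream and 11.8 in the 5000 bp downstream, while all genes had 11.0 and 11.1.

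**Figure D4:**
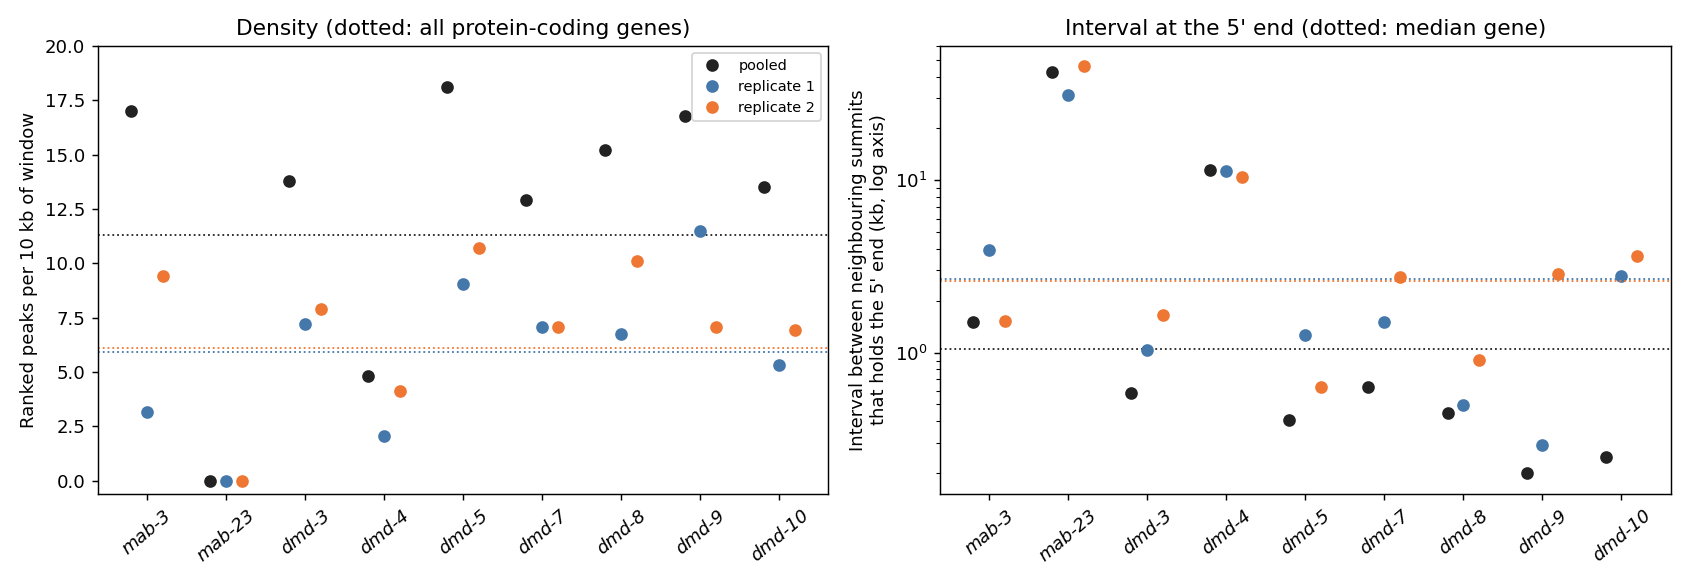
Left, ranked peaks per 10 kb of window for each placed gene in the pooled list (black), replicate 1 (blue) and replicate 2 (orange), with dotted lines for all protein-coding genes. Right, the length in kb (log axis) of the stretch between neighbouring summits that holds the 5' end, with dotted lines for the median gene; mab-23 and dmd-4 lie highest, at 42.4 and 11.5 kb in the pooled list.

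In the 5' end windows no member had a thresholded peak, and the strongest pooled ranked peaks were 63.6 at dmd-7 and 55.3 at dmd-8, described above. The others were 42.5 at dmd-5, 41.0 at mab-3, 38.4 at dmd-3, 37.2 at dmd-9 and 11.2 at dmd-10. None was listed for mab-23 or dmd-4. The 5' end window of dmd-10 held no peak in either replicate's list, and that of dmd-9 held 2 in replicate 1 and 0 in replicate 2.

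A loose form of the DM-domain binding core, ACANTGT with any base in the middle, was searched. The pattern is its own reverse complement and so covers both strands. From 250 bp upstream to 50 bp downstream of the outermost 5' end of each gene, 1 of the 9 members had a match, beside 8.63% of all protein-coding genes. Further annotated 5' ends, which mab-3, mab-23, dmd-3 and dmd-7 have, were not searched. The match was ACACTGT at dmd-7, with its first base 151 bp upstream. Its middle base is C, so no member promoter matched with A or T required there. Shares for that stricter form were not counted. Within 150 bp of the strongest pooled summits the loose pattern was found at 0 of 8 members, beside 7.69% of joint peaks and 7.54% of pooled ranked peaks.

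Genes of the same pathways were set beside the family. Of 14 sex determination genes, 4 had a joint peak within 5000 bp, beside 16.0% of all genes, and none had one in the 5' end window, beside 4.22%. The strongest were xol-1, the early switch gene of sex determination, with 135 at 4898 bp upstream, and tra-4, with 99.3 in a window where the nearest 5' end was that of kin-29. A joint peak of 72.9 lay 6505 bp past the 5' end of tra-1, the terminal regulator of the pathway, and 1 of 65.0 in the window of fem-2 was nearest to T19C3.6. Their median gene exceeded 60.5% of protein-coding genes in strongest pooled signal.

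Of 12 genes known as targets or partners of DM genes, 3 had a joint peak within 5000 bp and none had one in the 5' end window, against the same 16.0% and 4.22% of all genes. The strongest was at lin-32, with 144 at 2906 bp past its 5' end and within 100 bp of a tRNA gene. The others were lower. A joint peak of 55.8 in the window of blmp-1 was nearest to the 5' end of maph-1.2. The joint peak in the window of lin-22, at 13.7, was nearest to the 5' end of vrp-1. Its signal was below the median of all pooled ranked peaks, 22.5. The strongest pooled peak of that window, at 59.3, had a global IDR of 0.0377. In the window of fkh-9 a ranked peak of 69.5 was not past the threshold. None of the 6 vitellogenin genes, which encode yolk proteins, had a joint peak within 5000 bp, where 16.0% of all genes had one; with 6 genes, 0 is near that share. Their highest ranked peaks were 71.6 at vit-2, 69 bp past its 5' end, with 31.7 and 38.6 as the strongest of its window in replicates 1 and 2, and 69.5 at vit-6. The median gene of the target list exceeded 66.8% of protein-coding genes and that of the vitellogenins 67.4%, both lower than the 76.7% of the DM-domain genes other than mab-23 by less than the spread among those genes.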

How the data were processed

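The authors deposited peak lists on ce11, per the labels, and each gives a signal, a −log10 q value and, in the ranked lists, a −log10 global IDR for each peak. The sources used here name neither the aligner nor the peak caller or its settings. The deposited signal is not scaled between lists. The labels name a possible control library, which was not used here, and 32 columns of paired calls in the ranked lists were not used. Peak positions fit the chromosome lengths of WBcel235.

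Genes came from Ensembl release 115 and sequence from the RefSeq WBcel235 genome. Promoters were cut at the outermost Ensembl 5' end of each gene. Percentiles are shares of all 19973 protein-coding genes, with genes without a peak counted lowest. Python 3.11.15 with numpy 2.4.6, pandas 2.3.3 and blastn 2.17.0 was used, and the window counts were tested on simulated data. No p-value was computed. The members and lists were chosen with earlier results of these data known. Beside every listed DM-domain gene, the text names the genes nearest to each member's strongest pooled peak or nearest joint peak, and of each other list the 2 genes of highest pooled signal and any with a joint peak. Alternatives varied the window, placement, threshold, list and replicates.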

Additional observations from a re-analysis of the deposited data

How the results depend on the processing

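Counts of members are followed by the share of all genes under the same setting, which moved with them. The number of members with a joint peak, 2 (16.0%) in the main setting, was 1 (7.78%) with windows of 1000 bp, 1 (11.0%) with 2500 bp, 3 (24.5%) with 10000 bp, 0 (4.22%) in the 5' end window and 0 (6.53%) at a global IDR of 0.001. It was 1 (13.9%) without peaks within 100 bp of a tRNA gene and 1 (9.17%) without peaks of q above 0.05, both chosen after seeing the data, and 1 to 1 (7.63% to 7.97%) with a replicate left out. The number at a global IDR of 0.05, 5 (33.8%) in the main setting, was 2 (16.9%) with windows of 1000 bp and 3 (23.9%) with 2500 bp. It was 7 (49.2%) with windows of 10000 bp, 7 (48.7%) at a global IDR of 0.1 and 1 (7.79%) in the 5' end window. Without replicate 1 it was 2 (11.7%), and without replicate 2 it was 1 (12.1%). In every setting with a replicate left out, the other replicate's own list was used. Both the list and the pair compared for the IDR therefore changed. The members' median percentile, 76.7, was 68.2 with windows of 10000 bp, 79.5 in the 5' end window, 72.2 without peaks near tRNA genes and 65.9 to 69.7 with a replicate left out. The percentile of dmd-9, 74.4, was 45.4 with windows of 1000 bp and 44.3 to 73.3 with a replicate left out, the lower value without replicate 1. The density ratio, 1.11, was 1.27 in the 5' end window and 0.953 to 1.15 with a replicate left out, under 1 without replicate 2. The number of members with the same strongest region in both replicates, 2 (24.6%), was 1 (24.5%) with windows of 2500 bp. Smaller windows hold fewer peaks by construction; the causes of the other shifts were not tested. The depth is unknown, so the precision of each value is too. No paired analysis was possible because there is 1 group.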
